A study of Mus musculus with 6 samples.

Results

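Chromatin accessibility was examined around 9 genes of the enteroendocrine lineage in mouse small intestinal organoids, comparing organoids treated with the cytokine RANKL with control organoids. The genes were 8 transcription factors (Neurog3, Neurod1, Insm1, Pax4, Pax6, Isl1, Nkx2-2 and Rfx6) and Gip, which encodes a hormone of these cells. An accessible window was assigned to 1 of the 9 genes when the nearest protein-coding gene end on GRCm38 was that gene's start or end and lay within 50 kb. This gave 17 windows of the 55056 in the count table, or of the 38490 windows that lay within 50 kb of any protein-coding gene end. Neurog3 and Pax4 received no window, which was also the case for 27.0% of all protein-coding genes.

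Enteroendocrine cells are the hormone-secreting cells of the gut epithelium. They arise from crypt progenitors that escape Notch signalling, express Atoh1 and then, briefly, Neurog3, and they are completed by a cascade of transcription factors that set which hormone each cell makes. Gip encodes glucose-dependent insulinotropic polypeptide, the incretin hormone of the K cells of the upper small intestine.

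The data were bulk ATAC-seq, in which a transposase inserts adapters into open chromatin, so that more reads at a site mean more open copies of it in the cells sampled. All 6 libraries came from 1 organoid line of a female mouse carrying the Lgr5GFPDTR allele over wild type (Lgr5GFPDTR/+), with 50000 cells per library. The 3 RANKL libraries came from organoids given 3 µM CHIR99021 and 1.5 mM valproic acid for 3 days, ENR medium (EGF, Noggin, R-spondin 1) for 1 day, and then RANKL at 100 ng/ml for 6 days, a protocol that enriches for microfold (M) cells. The 3 control libraries came from organoids in ENR medium. Their library names begin with CVENR, which is not spelled out in the sources used here. No source states whether the controls also received CHIR99021 and valproic acid. Unless they did, any effect of that pretreatment cannot be told apart from that of RANKL. The replicates were 3 independent differentiation experiments on this line, so the spread between them does not include differences between animals.

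The library totals over all windows ran from 455083 to 976881 counts in the controls and from 322173 to 828445 in the RANKL libraries. Of all 200-bp windows tested, 20.1% differed between the groups (edgeR quasi-likelihood test, adjusted p at or under 0.05), 10% in each direction, and the median log2 fold change over all genes tested was 0.01. The split was less even with DESeq2 (2211 windows higher and 989 lower) and with no filter on low counts (3204 and 1973). All 10 intestinal epithelium markers examined (among them Epcam, Cdh1, Vil1 and Cdx2) had windows, with a summed level of 1617 to 1712 CPM (counts scaled to the library's total) in the controls and 1438 to 1670 in the RANKL libraries. Krt18, 1 of the 9 tested, was lower, against 8.3% of all genes tested. Read at a width of 2 kb, from the second deposited table, 10 were tested. At this width Krt18 and Cdx2 were lower and Krt20 was higher, against 12.3% and 9.39% of all genes tested. With loess offsets 1 was higher and 0 lower. Of the 5 M cell markers tested, 3 (Sox8, Marcksl1 and Tnfrsf11a) were higher with RANKL, against 7.02% of all genes tested. The list's summed level was 311 to 375 CPM in the controls and 476 to 644 CPM with RANKL. Without RANKL replicate 3, 1 of 4 was called. Within 5 kb of the gene ends 1 was higher and 1 lower, and within 1 kb 0 were higher and 1 lower. At a width of 2 kb, 5 of the 7 M cell markers tested were higher and 0 lower, against 9.39% of all genes tested called higher. With loess offsets at that width, 4 were higher and 0 lower. Markers of neural, immune, mesenchymal and endothelial cells are given with the enteroendocrine gene groups.

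Of the 17 windows, 7 lay inside genes and 5 lay within 1 kb of a gene end. Only 2 starts had a window in or near the RefSeq promoter window, which runs from 250 bases before to 50 bases after a start. Their 250 bases before the start are shown. The window at the Isl1 start lay wholly within that promoter window, with 158 of its 200 bases in the stretch shown. The window at the second listed Pax6 start had 13 bases in the stretch shown and the rest after it. Both are RefSeq sequences of GRCm38.p6, written 5′ to 3′ on the gene's strand, and capitals mark the E-box (CANNTG), the motif class bound by basic helix-loop-helix factors such as NEUROG3 and NEUROD1.
Isl1, chr13:116309689-116309938, minus strand: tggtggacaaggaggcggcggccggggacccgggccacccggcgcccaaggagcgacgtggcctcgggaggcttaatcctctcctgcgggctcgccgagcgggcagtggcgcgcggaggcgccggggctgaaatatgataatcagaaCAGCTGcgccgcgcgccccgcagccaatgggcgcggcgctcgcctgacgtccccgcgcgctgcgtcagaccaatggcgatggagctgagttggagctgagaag
Pax6 second start, chr2:105682213-105682462, plus strand: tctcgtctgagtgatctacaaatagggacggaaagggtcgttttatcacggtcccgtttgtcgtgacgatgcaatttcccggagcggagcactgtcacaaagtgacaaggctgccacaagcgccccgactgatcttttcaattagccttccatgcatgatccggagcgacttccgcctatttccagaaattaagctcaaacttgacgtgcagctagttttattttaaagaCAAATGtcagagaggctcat
The Isl1 stretch had a GC content of 71.2%, and its only E-box was CAGCTG, beginning 103 bases before the start. The Pax6 stretch had a GC content of 47.6%, with CAAATG beginning 20 bases before the start. It also held the Ets core GGAAGT on the other strand, 82 bases before the start. Both Pax6 motifs lay outside the 200-bp window, which reached only 13 bases before the start. Read on both strands, CANNTG occurred in 72.3% of all 32851 promoter windows of the table, and GGAAGT in 23.8%. The letters ATTGAT, the core of the ONECUT motif, occurred in 7.54% of all promoter windows and in none of those of the 9 genes that the table holds (8 starts of 7 genes, without Insm1 and Pax4).

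Gip was the one gene of the 9 whose summed accessibility passed the test, and it was more accessible with RANKL, 2.40-fold in the 200-bp windows and 2.22-fold in the 2-kb windows. The transcription factor genes did not pass the test as sums. Among single windows, the one at the 5′ end of Nkx2-2 fell by 1.31 on the log2 scale on 2-kb counts, and held too few counts to be tested at 200 bp. It was the 1 window called of 15 tested at 2 kb, against 18.5% of all windows tested. In bulk chromatin, a change in the number of enteroendocrine cells and a change in accessibility per cell cannot be told apart. A sum here is the total count over a gene's windows, in CPM of the counts tested after TMM scaling, and the same windows were also read at a width of 2 kb from the second deposited table. With 5 of the 9 genes tested on 200-bp sums, 1 was called higher and 0 lower, where 7.02% of the 12463 genes tested were called higher and 15.3% in either direction. On 2-kb sums, 7 were tested and 1 was called, against 9.39% of 15591 genes called higher and 21.7% in either direction.

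**Figure D1:**
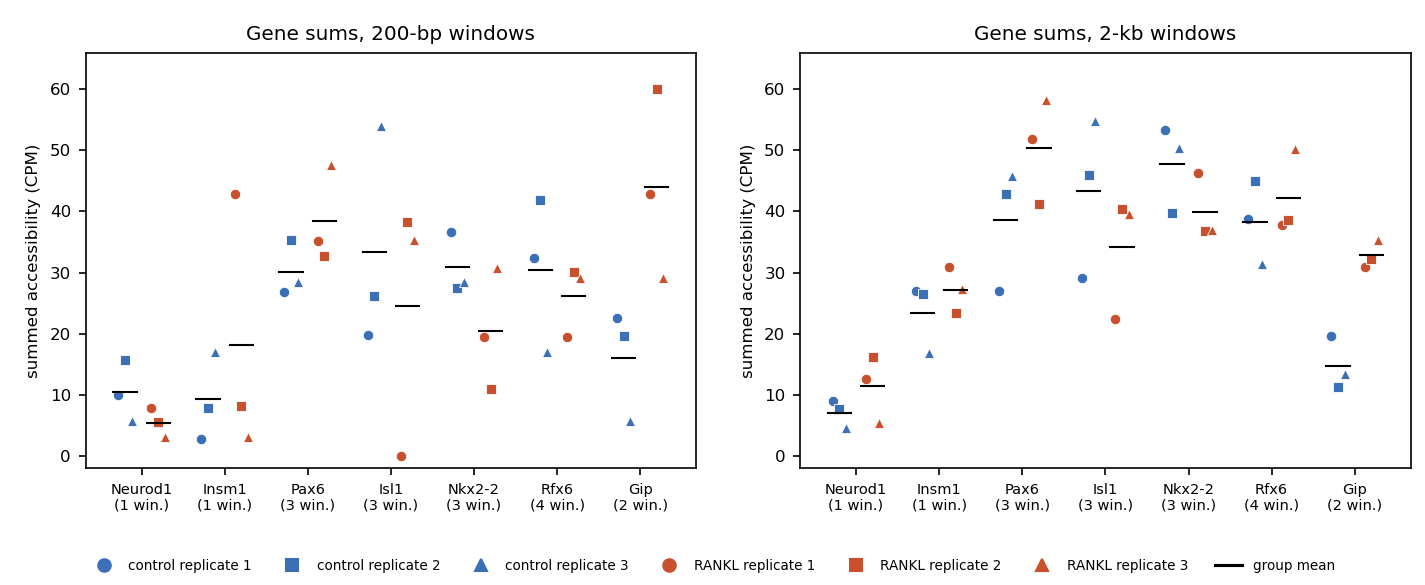
Summed accessibility of the 7 genes with a window in each of the 6 libraries, in CPM, from 200-bp counts and from 2-kb counts. Points are libraries and bars are group means; the 3 RANKL points lie above the 3 control points for Gip at both widths, while the groups overlap at both widths for the other genes.

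The summed 200-bp level of Gip was 22.6, 19.6 and 5.68 CPM in control replicates 1 to 3 and 42.9, 60.0 and 29.2 CPM in RANKL replicates 1 to 3. These were small numbers of reads: 16, 15 and 2 counts in the controls against 11, 22 and 19 with RANKL. All RANKL libraries lay above all control libraries. Of all genes tested, 30.6% had groups that did not overlap, counting both directions. The group means were 16.0 ± 9.02 CPM and 44.0 ± 15.5 CPM (SD, n = 3 each), a log2 change of 1.26 ± 0.43 (SE; edgeR quasi-likelihood test, Benjamini-Hochberg adjusted p = 0.028). The call was lost at a similar or larger log2 fold change with DESeq2 (1.33, adjusted p = 0.0931) and in edgeR without control replicate 2 (1.37, adjusted p = 0.0631) and also without RANKL replicate 1 (1.26, adjusted p = 0.0537). It was lost at a smaller one with control replicate 3 left out (1.00, adjusted p = 0.115), with RANKL replicate 2 left out (0.97, adjusted p = 0.252), and when only windows within 5 kb (0.84, adjusted p = 0.316) or 1 kb (0.80, adjusted p = 0.349) of the gene were summed.

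On 2-kb counts the Gip sum was 19.6, 11.2 and 13.4 CPM in the controls and 30.8, 32.3 and 35.3 CPM with RANKL. The RANKL libraries lay close together here and again above all controls, as in 34.8% of all genes tested without overlap in either direction. The means were 14.8 ± 4.36 and 32.8 ± 2.27 CPM (SD, n = 3 each), a log2 change of 1.15 ± 0.30 (edgeR adjusted p = 0.00298). This call held under all 9 alternatives run on the 2-kb counts, with log2 fold changes of 0.94 to 1.45 and adjusted p-values of 0.0024 to 0.0443.

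Neither of the 2 windows behind the Gip sum lay at the gene's 5′ end. The distal one, at chr11:96018104-96018303, was intergenic and its centre lay 6.3 kb before the start of the gene (chr11:96024532-96030831). It held 0, 6 and 0 counts in the controls against 2, 10 and 7 with RANKL at 200 bp, and 5, 10 and 0 against 6, 16 and 22 at 2 kb. After scaling, the groups did not overlap at either width, as in 33.4% of all windows tested at 200 bp and 32.8% at 2 kb. The 2-kb log2 fold change was 1.87 ± 0.70 (edgeR adjusted p = 0.0518), and 0.78 ± 0.70 with loess offsets (adjusted p = 0.515). The second window, at chr11:96030698-96030897, straddled the 3′ end, with its centre 34 bp inside the gene. It held 16, 9 and 2 counts in the controls against 9, 12 and 12 with RANKL. At 200 bp the groups overlapped after scaling and the log2 fold change was 0.95 ± 0.49 (adjusted p = 0.168), while at 2 kb they did not overlap and it was 0.80 ± 0.36 (adjusted p = 0.123). The windows thus passed the test as a sum and not singly.

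Within 50 kb of Gip lay 4 windows whose nearest gene was a different one. At Snf8, 4.0 kb from Gip, the counts were 4, 3 and 2 in the controls and 2, 4 and 14 with RANKL, and the 2-kb log2 fold change was 0.82 ± 0.53 (edgeR adjusted p = 0.320). At Atp5g1, which encodes a subunit of mitochondrial ATP synthase and lies 45.0 kb from Gip, the window was higher with RANKL at 200 bp, by 0.71 ± 0.19 (adjusted p = 0.00207), and not past the threshold at 2 kb, at 0.39 ± 0.16 (adjusted p = 0.0759). The window at Ube2z, 34.6 kb away, had a log2 fold change of 0.25 (adjusted p = 0.632), and that nearest to Igf2bp1, 35.8 kb away, had one of -0.03 at 2 kb (adjusted p = 0.979). Across the 6 libraries, the genes whose log2 CPM followed that of Gip most closely were Arpc1b (Pearson r = 0.996), Chac1 (0.995) and Acbd4 (0.995), of 12462 genes compared. As many as 337 genes had an r over 0.9, and all points share the same 6 libraries and their depth.

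Neurog3, the factor that commits progenitors to the endocrine fate, had no window of its own (chr10:62133090-62134763). The nearest window lay 22.1 kb away, at Fam241b, with 21, 26 and 15 counts in the controls against 11, 6 and 24 with RANKL, overlapping groups and a log2 change of -0.03 ± 0.36 (edgeR adjusted p = 0.965). A second, 48.5 kb away near Tspan15, also had a log2 fold change of -0.03 (adjusted p = 0.971). The table lists only windows the depositors kept, and by what rule is not given in the sources used here, so the lack of a window sets no limit on accessibility at Neurog3.

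Neurod1, a basic helix-loop-helix factor downstream of Neurog3, had 1 distant window, at chr2:79499436-79499635, 42.9 kb before the gene start. Its counts were 7, 12 and 2 in the controls, and with RANKL 2, 2 and 2 at 200 bp, too few to be tested, and the group means were 10.5 and 5.73 CPM. At 2 kb, where the mean was instead higher with RANKL, they were 16, 15 and 4 against 9, 18 and 10, with overlapping groups and a log2 change of 0.52 ± 0.55 (edgeR adjusted p = 0.587). On the other side of Neurod1, 41.9 kb away and nearest to Cerkl, a window held 11, 16 and 4 counts in the controls against 0, 2 and 4 with RANKL. Its groups did not overlap after scaling, as in 33.4% of all windows tested at 200 bp. It was lower at 2 kb by a log2 fold change of -1.53 ± 0.47 (adjusted p = 0.0153).

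Insm1, a zinc-finger repressor needed for endocrine differentiation, had 1 window inside its gene, at chr2:146222561-146222760. It held 2, 6 and 6 counts in the controls against 11, 3 and 2 with RANKL, with overlapping groups. At 2 kb the counts were 48, 52 and 15 against 22, 26 and 51, and the log2 fold change was 0.10 ± 0.27 (edgeR adjusted p = 0.865). The Insm1 sum on 2-kb counts was 26.9, 26.5 and 16.8 CPM in the controls and 30.8, 23.3 and 27.3 CPM with RANKL, with a 95% interval of the log2 fold change from -0.41 to 0.71.

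Pax4, a paired-box factor that acts early in the choice of endocrine subtype, had no window of its own (chr6:28442334-28449340). Of the windows within 50 kb, the nearest (15.6 kb, at Snd1) held 9, 12 and 4 counts in the controls against 4, 2 and 6 with RANKL, with a 2-kb log2 fold change of 0.22 ± 0.41 (edgeR adjusted p = 0.773). The stronger windows at Gcc1 and Snd1, 20.6 and 30.8 kb away, had 200-bp log2 fold changes of 0.25 (adjusted p = 0.343) and 0.30 (adjusted p = 0.211). None of these windows passed the test.

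Pax6, a paired-box factor that activates hormone genes including Gip, had 3 windows. Their sum was 26.8, 35.3 and 28.4 CPM in the controls and 35.1, 32.7 and 47.6 CPM with RANKL, and the groups overlapped. The log2 fold change was 0.39 ± 0.37 at 200 bp (edgeR adjusted p = 0.529, 95% interval -0.34 to 1.11) and 0.44 ± 0.22 at 2 kb (adjusted p = 0.144). It turned to -0.42 when only the window within 5 kb of a gene end was used.

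The 3 Pax6 windows did not move together. The strongest, 1.5 kb inside the 5′ end at chr2:105670278-105670477, held 19, 26 and 9 counts in the controls against 7, 10 and 11 with RANKL, with overlapping groups and a log2 change of -0.31 ± 0.42 (edgeR adjusted p = 0.657). The window 17.7 kb before the gene, at chr2:105651134-105651333, held 0, 0 and 0 counts in the controls against 2, 0 and 10 with RANKL. At 2 kb it held 2, 8 and 4 against 7, 9 and 28, and every RANKL library lay above every control after scaling. Groups without overlap were found in 32.8% of all windows tested at 2 kb. The log2 fold change of this window was 1.78 ± 0.71 (adjusted p = 0.0674). The window at the second listed start held 0, 1 and 1 counts against 0, 2 and 10, and did not cover the Pax6 E-box printed above. At 2 kb its log2 fold change was 0.91 ± 0.54 (adjusted p = 0.264), and it turned to -0.16 without RANKL replicate 3.

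Isl1, a LIM-homeodomain factor of maturing endocrine cells, had 3 windows with a summed level of 19.7, 26.2 and 54.0 CPM in the controls and 0, 38.2 and 35.3 CPM with RANKL. The groups overlapped widely, and a count of 0 in RANKL replicate 1 allows up to 3 counts, or 11.7 CPM. The log2 fold change was -0.14 ± 0.42 (edgeR adjusted p = 0.876, 95% interval -0.96 to 0.69) and -0.24 ± 0.23 at 2 kb (adjusted p = 0.521). It was 0.25 without control replicate 3 and 0.26 without RANKL replicate 1.

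At the Isl1 promoter printed above, the window chr13:116309647-116309846 held 8, 19 and 13 counts in the controls against 0, 4 and 10 with RANKL. In CPM these were 11.5, 25.0 and 36.8 against 0, 11.5 and 16.4, so the RANKL libraries lay at the low end and overlapped the controls. At 2 kb the counts were 19, 53 and 26 against 6, 16 and 25 and the log2 fold change was -0.84 ± 0.36 (edgeR adjusted p = 0.102). Without control replicate 1, the lowest control, it was -1.20 and passed the test (adjusted p = 0.0188). The other Isl1 windows, 3.1 kb inside the 3′ end and 21.7 kb before the start, held at most 10 counts in any library at 200 bp, and the first had a 2-kb log2 fold change of -0.26 ± 0.37 (adjusted p = 0.709).

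Farther from Isl1, in windows beyond the 50 kb limit whose nearest gene end was still that of Isl1, 2 of 5 between 50 and 200 kb were lower with RANKL at 2 kb, against 10.2% of all windows tested. The other 3 had 2-kb log2 fold changes of 0.02, -0.24 and 0.18, and none of them was called. At chr13:116443281-116443480, 133.7 kb away, the counts were 25, 27 and 15 in the controls and 4, 1 and 12 with RANKL, the groups did not overlap after scaling, and the log2 fold change was -1.41 ± 0.44 (edgeR adjusted p = 0.012) and -1.31 ± 0.27 at 2 kb (adjusted p = 0.000242). At chr13:116480303-116480502, 170.7 kb away, the counts were 28, 14 and 4 against 1, 0 and 4, again without overlap after scaling, and the 2-kb log2 fold change was -1.34 ± 0.41 (adjusted p = 0.0154). Of all windows tested at 200 bp, 33.4% had groups without overlap. With a limit of 200 kb in place of 50 kb the Isl1 sum was called lower, at -0.68 (adjusted p = 0.00971). Which gene these distant windows act on was not tested.

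Nkx2-2, a homeodomain factor that specifies endocrine subtypes, had a sum of 36.7, 27.5 and 28.4 CPM in the controls and 19.5, 10.9 and 30.7 CPM with RANKL. RANKL replicate 3 overlapped the controls, and the log2 fold change was -0.50 ± 0.44 (edgeR adjusted p = 0.488, 95% interval -1.36 to 0.36) and -0.28 ± 0.21 at 2 kb (adjusted p = 0.390). The sum combined windows that went different ways. The window chr2:147178248-147178447, 1.9 kb inside the 3′ end, had a 2-kb log2 fold change of 0.26 ± 0.31 (adjusted p = 0.627), and the one 22.5 kb before the gene held at most 7 counts in a library.

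The window at the 5′ end of Nkx2-2, chr2:147195128-147195327, was the only one of the 17 to pass the test at either width. It lies 207 bp inside the annotated gene and 8.8 kb before the start that the promoter table lists. At 200 bp it held 12, 10 and 8 counts in the controls against 0, 1 and 4 with RANKL, which was under the filter for testing. At 2 kb it held 49, 37 and 27 counts in the controls against 8, 12 and 18 with RANKL, or 22.8, 15.9 and 25.5 CPM against 9.13, 8.67 and 7.76 CPM. Every RANKL library lay below every control at both widths. Of all windows tested at 2 kb, 32.8% had groups without overlap, counting both directions. The 2-kb means were 21.4 ± 4.95 and 8.52 ± 0.70 CPM (SD, n = 3 each), and the log2 fold change was -1.31 ± 0.35 (edgeR adjusted p = 0.00426). The call held under all 9 alternatives on the 2-kb counts, with log2 fold changes of -1.52 to -1.20 and adjusted p-values up to 0.0412. The central 200 bp held 30 of the 113 control counts of the 2-kb window (26.5%) and 5 of the 38 RANKL counts (13.2%).

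Rfx6, a winged-helix factor required for incretin-producing cells, had 4 windows, with a summed level of 32.4, 41.8 and 17.04 CPM in the controls and 19.5, 30.0 and 29.2 CPM with RANKL. The groups overlapped and the sign depended on the width, with log2 fold changes of -0.25 ± 0.41 at 200 bp (edgeR adjusted p = 0.738) and 0.14 ± 0.22 at 2 kb (adjusted p = 0.6997). At the 5′ end of the gene, the window chr10:51677614-51677813 held 8, 14 and 2 counts in the controls against 1, 2 and 4 with RANKL. At 2 kb it held 27, 45 and 11 against 5, 9 and 22, and every RANKL library lay below every control after scaling. Groups without overlap were found in 32.8% of all windows tested at 2 kb. The log2 fold change of this window was -0.92 ± 0.40 (adjusted p = 0.101). Its centre lies 7.8 kb before the start that the promoter table lists. The other 3 windows, 8.3, 13.6 and 20.3 kb before the gene, had positive 2-kb log2 fold changes of 0.55 ± 0.47, 1.05 ± 0.66 and 0.27 ± 0.48, with adjusted p-values from 0.302 to 0.766.

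**Figure D2:**
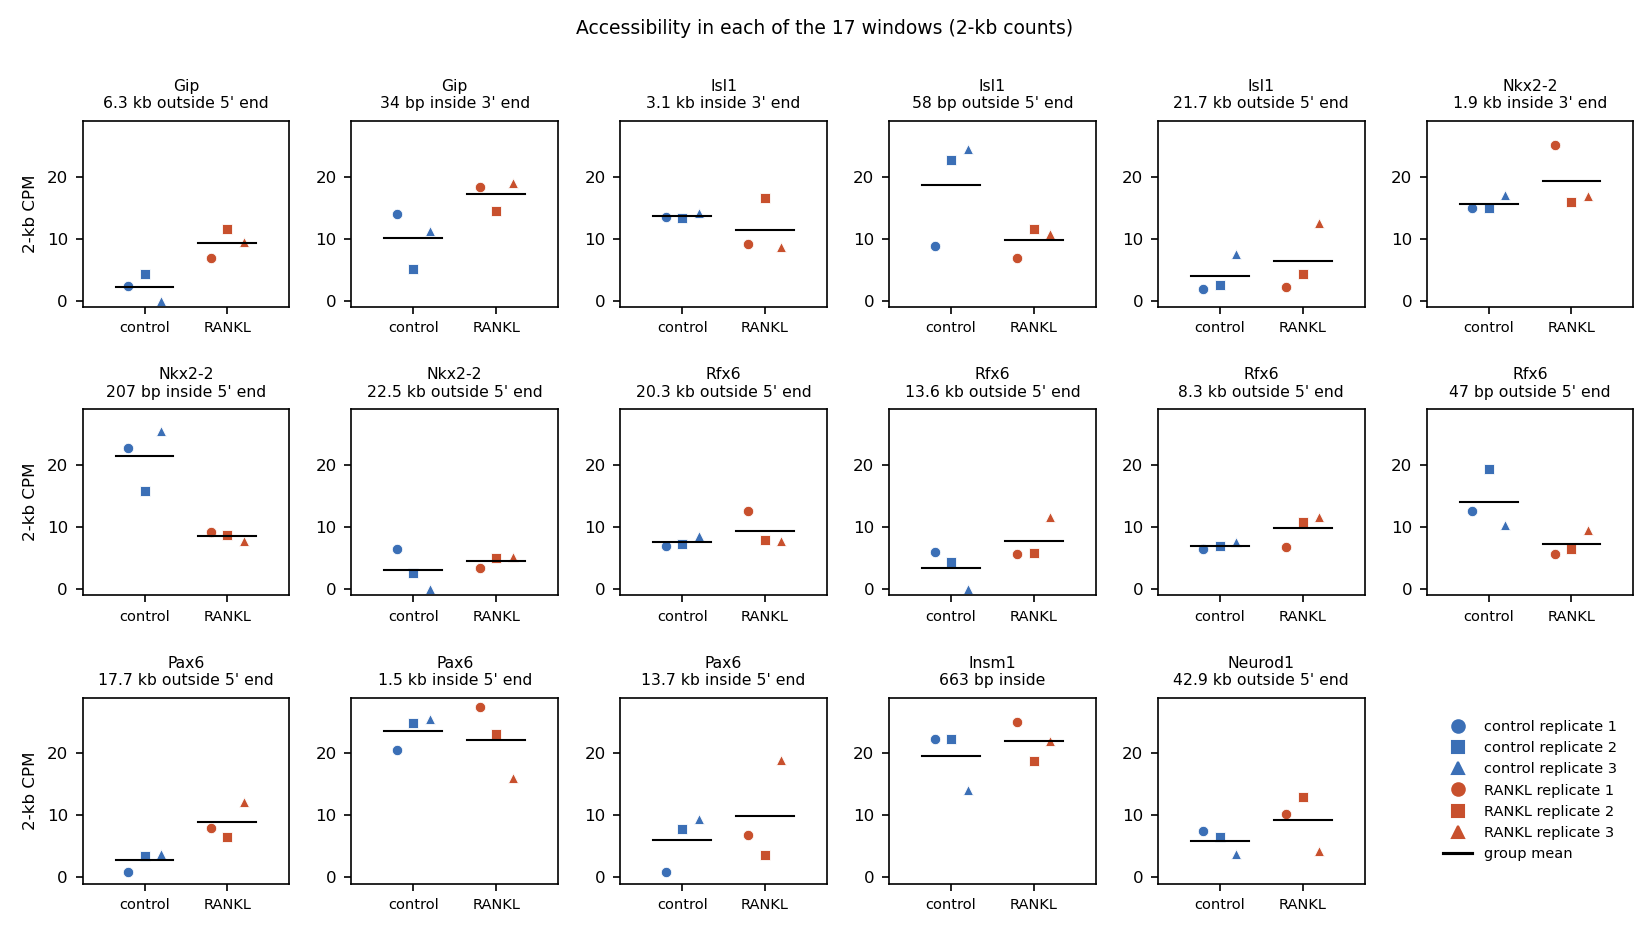
Counts in each of the 17 windows in the 6 libraries, in CPM of the 2-kb counts. Points are libraries by group, and windows are named by gene and by distance of the window centre from the nearest gene end. All RANKL libraries lie above all controls in both Gip windows and in the Pax6 window 17.7 kb outside the 5′ end. They lie below in the windows at the 5′ ends of Nkx2-2 and Rfx6. Of all windows tested at 2 kb, 32.8% had groups without overlap.

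Of the 17 windows, only 2 passed the filter on low counts at 200 bp, against 39.3% of all windows, and 0 of these 2 were called where 20.1% of all windows tested were (edgeR). Neither had an unadjusted p under 0.05 (0.0538 for Gip and 0.455 for Pax6), and neither was called by DESeq2. At 2 kb 15 passed and 1 was called, a lower one. Of 49935 windows tested at 2 kb 18.5% were called, 8.37% higher and 10.2% lower. Among the 15 windows, 5 had groups that did not overlap, against 32.8%. By mean CPM, 13 of the 17 lay below the median of all windows, with a median of 9.16 CPM against 14.0 CPM. RANKL replicate 3 held exactly 10 counts in 5 of the 17 windows, a value it held in 4.65% of all windows, and it was the highest library by CPM in 5 of the 17, against 17.8% of all windows. Without that library Gip was still called at 200 bp (1.56, edgeR adjusted p = 0.0226) and at 2 kb (1.09, adjusted p = 0.0304), as was the 5′ window of Nkx2-2 at 2 kb (-1.20, adjusted p = 0.0412).

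**Figure D3:**
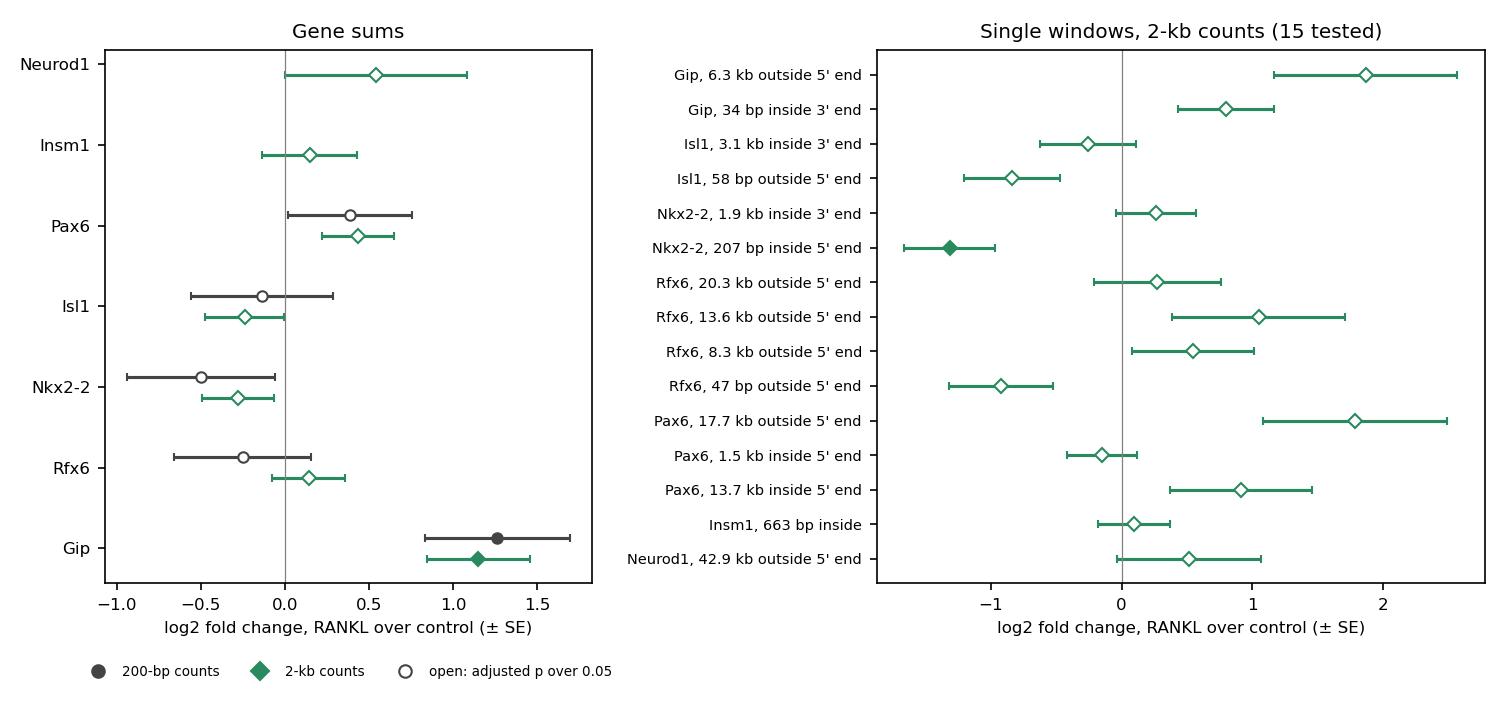
Log2 fold changes of RANKL over control with standard errors (edgeR), for the gene sums at 200 bp and 2 kb and for the 15 single windows tested at 2 kb. Filled symbols have an adjusted p at or under 0.05; these are Gip at both widths (1.26 and 1.15) and the 5′ window of Nkx2-2 (-1.31).

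Other genes of the enteroendocrine programme and its upstream pathway were examined from lists chosen with earlier results of these data known, so their counts are a description. The hormone list held 15 genes other than Gip. Of these 9 had a window and 4 could be tested, and 1 was called higher, against 7.02% of all genes tested. This was Iapp, the gene of the peptide amylin. Its single window, 8.7 kb outside the gene, gave 16.9, 27.5 and 25.6 CPM in the controls and 50.7, 65.5 and 70.7 CPM with RANKL. The groups did not overlap, as in 30.6% of all genes tested, and the log2 change was 1.46 ± 0.34 (edgeR adjusted p = 0.00052). The other 3 tested hormone genes had negative log2 fold changes, among them Chgb, the granule protein chromogranin B, at -1.38 ± 0.57 (adjusted p = 0.0802). The list's median was -0.60, against 0.01 over all genes tested. The call on Iapp rests on this single window: within 5 kb or by nearest gene body Iapp had none, and 0 hormone genes were called. Leaving out control replicate 3, RANKL replicate 1 or RANKL replicate 2 raised the number of hormone genes called from 1 to 2. Chga, the granule protein chromogranin A, was too low to test, at 2, 0 and 1 counts in the controls against 5, 7 and 12 with RANKL, and its 2-kb log2 fold change was 1.09 ± 0.42 (adjusted p = 0.0505).

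Of the other enteroendocrine transcription factor genes, 15 of 21 could be tested, 0 were higher and 4 were lower with RANKL, where 8.3% of all genes tested were lower. St18, a zinc-finger factor, was at 229 ± 45.6 CPM in the controls and 120 ± 24.7 CPM with RANKL (SD, n = 3 each), a log2 change of -0.82 ± 0.16 (edgeR adjusted p = 1.1e-05). Etv1, an Ets factor, was lower by a log2 fold change of -0.67 ± 0.14 (adjusted p = 4.3e-05). Tox3 was lower by -0.71 ± 0.17 (adjusted p = 0.00103) and Sox4, a factor of early endocrine progenitors, by -0.51 ± 0.14 (adjusted p = 0.00495). In each of these genes all RANKL libraries lay below all controls, where 30.6% of all genes tested had groups without overlap in either direction. The list's median was -0.20, and on 2-kb counts 8 of 16 were lower, against 12.3% of all genes tested. The call on Sox4 rested on distal windows, since within 5 kb of the gene its log2 fold change was -0.0036 (adjusted p = 0.995). That on Tox3 was lost within 5 kb at a larger log2 fold change (-1.05, adjusted p = 0.0516) and with windows within 200 kb at a smaller one (-0.39, adjusted p = 0.0607), and both were lost when all libraries were thinned to the smallest (adjusted p = 0.109 for Tox3 and 0.117 for Sox4).

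Of the secretory granule genes, 11 of 19 could be tested, 0 were higher and 2 were lower, where 8.3% of all genes tested were lower, with a median log2 fold change of -0.25. Snap25, a membrane fusion protein of exocytosis, was at 209 ± 11.3 CPM in the controls and 133 ± 2.97 CPM with RANKL (SD, n = 3 each), a log2 change of -0.66 ± 0.16 (edgeR adjusted p = 0.000565). Within 5 kb of Snap25 it was -0.03 (adjusted p = 0.981). Cplx2, a complexin that acts with the fusion machinery, was lower by -0.78 ± 0.26 (adjusted p = 0.0224). On 2-kb counts Cplx2 was at -0.11 (adjusted p = 0.636), and at -0.04 with loess offsets (adjusted p = 0.900). The 200-bp call was lost in 9 of 16 alternatives, including the fit with the replicate number as a block (adjusted p = 0.0705), and without control replicate 1 (0.263), control replicate 2 (0.0545) or RANKL replicate 2 (0.103). Both genes are also expressed in neurons.

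Of the nutrient sensor genes, 4 of 13 could be tested, 0 were higher and 1 was lower, against 8.3% of all genes tested. Trpc4, a cation channel gene, was lower by a log2 change of -0.93 ± 0.21 (edgeR adjusted p = 0.000224), and was not called without RANKL replicate 3 (-0.62, adjusted p = 0.0752). The list's median was 0.04. On 2-kb counts 2 of 10 tested genes were higher, against 9.39% of all genes: Abcc8, a subunit of the ATP-sensitive potassium channel, by 0.84 ± 0.22 (adjusted p = 0.00325), and Sstr5, a somatostatin receptor, by 1.88 ± 0.60 (adjusted p = 0.0146). Trpc4 was again lower at that width, at -0.63 (edgeR adjusted p = 0.00247), against 12.3% of all genes. With loess offsets only 1 gene of the list was higher and 1 lower.

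Upstream of the 9 genes, 9 of 10 secretory fate genes could be tested, 0 were higher and 3 were lower, against 8.3% of all genes tested. Atoh1, which opens the secretory fate, was at 273 ± 30.7 CPM in the controls and 138 ± 16.2 CPM with RANKL (SD, n = 3 each), a log2 change of -1.02 ± 0.15 (edgeR adjusted p = 8.1e-10). Sox9, a progenitor factor, was lower by -0.72 ± 0.15 (adjusted p = 0.000113), and Notch1, the receptor, by -0.68 ± 0.20 (adjusted p = 0.00859). The groups did not overlap in any of these genes, as in 30.6% of all genes tested. Sox9 within 5 kb of the gene was at -0.06 (adjusted p = 0.900), and Notch1 was not called by DESeq2 (adjusted p = 0.0563) or on 2-kb counts (-0.28, adjusted p = 0.128). The list's median was -0.11.

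Markers of other cells were measured beside these groups. Of the neural markers 5 of 10 had a window, 0 of the 2 tested were called at 200 bp, and their summed level was 91.7 to 118 CPM in the controls and 59.9 to 134 CPM with RANKL. Of the immune markers 3 of 8 had a window, and Zap70 was higher, with the list at 90.2 to 112 CPM and 109 to 158 CPM. Of the mesenchymal markers all 7 had a window, 5 were tested and Pdgfrb was higher, with the list at 222 to 274 and 230 to 301 CPM. Of the endothelial markers all 4 had a window, 3 were tested and Cdh5 was higher, with the list at 145 to 213 and 142 to 203 CPM. Among all genes tested at 200 bp, 7.02% were called higher. On 2-kb counts Zap70, Pdgfrb and Cdh5 were again higher, the neural marker Uchl1 was higher by 1.02 ± 0.35 (edgeR adjusted p = 0.0259), and the mesenchymal marker Vim was lower by a log2 fold change of -1.43 ± 0.44 (adjusted p = 0.0114). The shares over all genes tested on 2-kb counts were 9.39% higher and 12.3% lower. The part of these markers in the results on the enteroendocrine genes was not tested.

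**Figure D4:**
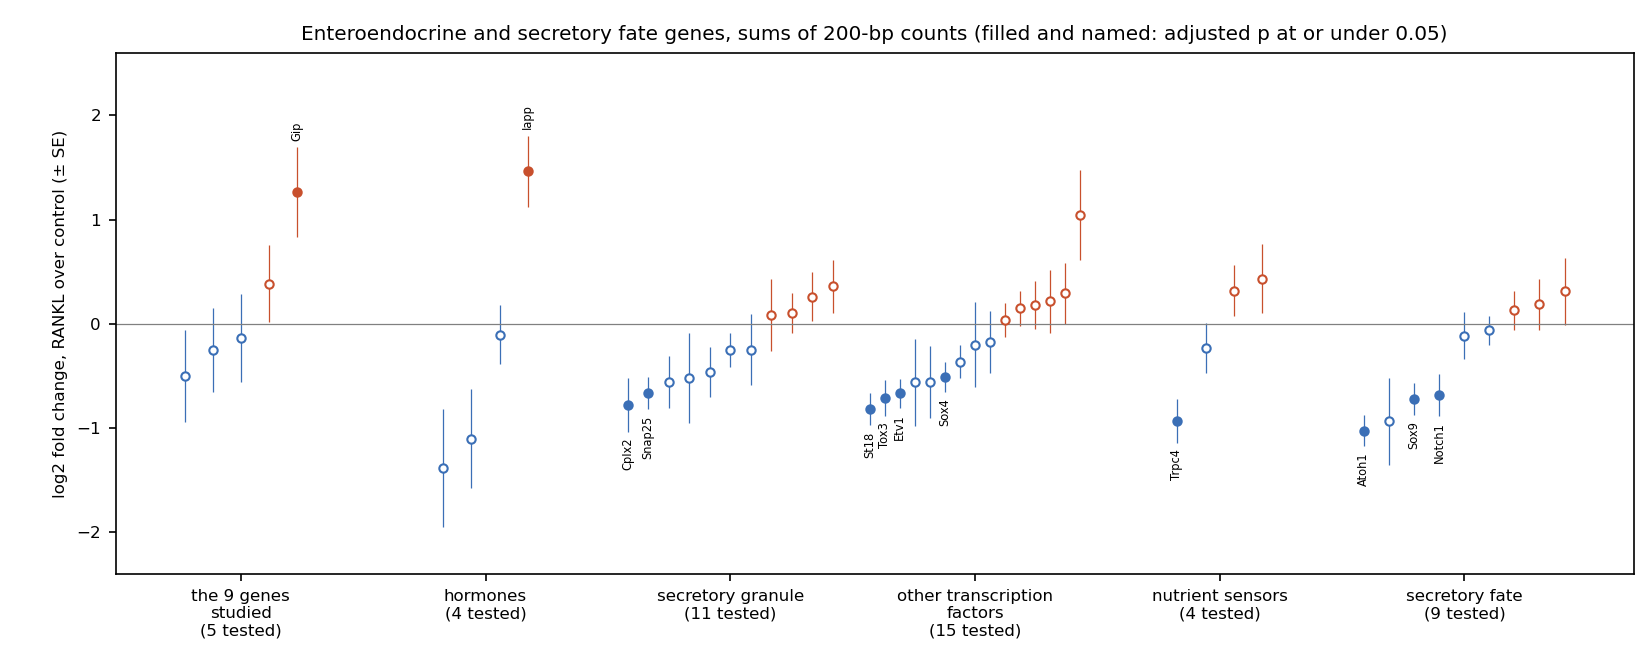
Log2 fold changes of RANKL over control (200-bp sums, with standard errors, edgeR) for every gene tested among the 9 genes and the 5 lists of enteroendocrine and secretory fate genes. Filled and named points have an adjusted p at or under 0.05; 2 of them, Gip and Iapp, lie above 0, and the other named genes lie below it.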

How the data were processed

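The authors deposited whole-number read counts in 200-bp windows and a second table of normalized values, a score per 2-kb window on a log scale, per the file headers and values. From the score, 2-kb counts were recovered, all within 0.00743 of a whole number; 6 windows lacked one. The submitters' processing notes list BWA 0.7.17, fastp 0.20.1, DESeq2 1.34.0, MACS2 2.2.7 and Picard, and build mm10; reads were 38 bp. For the transposase offset, duplicates and the choice of windows, no source used here gives the setting.

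Windows were assigned to the nearest protein-coding gene end (RefSeq, GRCm38.p6) within 50 kb and counts were summed per gene. Sums and windows were tested with edgeR 4.0.16 (quasi-likelihood, TMM, filterByExpr, limma 3.58.1, R 4.3.3) across the whole table, RANKL against control, p adjusted by Benjamini-Hochberg and a threshold of 0.05. SEs are the log2 fold change divided by the square root of F, and 95% intervals are 1.96 SE. Alternatives were DESeq2 1.42.0, RLE factors, no filter, the replicate number as a block, each library left out, thinning to 322173 counts, 2-kb counts with and without loess offsets, other distances (5, 1 and 200 kb) and the nearest gene body. The tests on 2-kb sums with their own alternatives were added after the data were seen.

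Counting 3 reads corresponds to 4.30, 3.95 and 8.49 CPM in the control windows and 12.2, 8.66 and 4.92 CPM in the RANKL windows; without molecular identifiers such floors cover counting error only. On simulated counts, edgeR recovered 89 of 100 genes changed 4-fold and 66 of 100 changed 2-fold (12463 genes), and 72 and 26 of 100 windows at 2 kb (49935 windows). The changed genes and windows were drawn from all that passed the filter. Since 13 of the 17 windows studied lay below the median CPM of all windows, these rates do not measure recovery for the 9 genes.

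The 9 genes, the lists and the motifs were chosen with earlier results of these data known. Named are all 9 genes and their windows, in each list the called genes, at most 4 by adjusted p, and the 3 genes most correlated with a called gene; neighbouring windows, Chga, Chgb, Abcc8, Sstr5 and marker genes were named after their values were seen.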

Additional observations from a re-analysis of the deposited data

How the results depend on the processing

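With the replicate number as a block, 3634 windows (4335 without) and 1587 genes (1910 without) were called. Gip stayed called (1.47, adjusted p = 0.02), as did the Nkx2-2 5′ window at 2 kb (-1.31, adjusted p = 0.00893); granule genes called went from 2 to 1 (Cplx2), and no other named call changed. Same-numbered libraries did not deviate together: r over genes was -0.049, 0.00866 and -0.031 for replicates 1 to 3, so the numbers were not taken to pair the libraries.

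Windows called were 1289 after thinning, 9257 with 2-kb counts, 6725 with loess offsets, and 2812 (without RANKL replicate 3) to 5006 with a library left out. Genes called were 929 with DESeq2, 855 after thinning, 3386 with 2-kb counts, 2920 with loess offsets, 882 within 5 kb, 519 within 1 kb, and 1227 (without RANKL replicate 3; 1248 without control replicate 1) to 1765 with a library left out. Of the 9 genes, 0 were called with DESeq2, after thinning, within 5 kb or within 1 kb, 2 within 200 kb, and 0 to 1 with a library left out. Of their windows, 1 was called with 2-kb counts and 1 with loess offsets in place of 0, and on 2-kb counts 1 to 2 with a library left out.

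Hormone genes called (1) became 2 with DESeq2, no filter or 200 kb, 3 with loess offsets (1 higher and 2 lower), 0 within 5 kb, 1 kb or by nearest gene body, and 1 to 2 with a library left out. Granule genes (2) became 1 with DESeq2, the block or thinning, 4 with loess offsets (1 higher and 3 lower) or 200 kb (all lower), 0 within 5 or 1 kb, and 1 to 2 with a library left out. Other transcription factors (4) became 2 after thinning or within 5 kb, 8 with 2-kb counts, 7 with loess offsets and 1 within 1 kb, all lower. Within 200 kb they became 6, of which 2 were higher and 4 lower. Nutrient sensors (1) became 3 with 2-kb counts (2 higher and 1 lower), 2 with loess offsets (1 higher and 1 lower), 0 within 5 or 1 kb, and 0 to 1 with a library left out. Secretory fate genes (3) became 1 within 1 kb. Markers of other cells (3) became 0 after thinning, 5 with 2-kb counts (4 higher and 1 lower), 1 within 5 kb and 0 within 1 kb.

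Directions reversed only where no call stood, among the log2 fold changes followed across the alternatives. These were those of the genes studied, their windows, and the genes called at 200 bp in the enteroendocrine and secretory fate lists. Marker genes and the other genes and windows named were not followed singly, so reversals there were not tested. All 5 M cell markers tested had positive log2 fold changes. Within 5 kb 1 marker was called lower, and within 1 kb 1 was. The numbers of calls do not show which. Pax6 was -0.42 within 5 kb, and its window 1.5 kb inside was 0.028 with loess offsets on 2-kb counts. Isl1 was 0.22 after thinning and -0.49 to 0.26 with a library left out. Rfx6 was 0.14 with 2-kb counts, 0.10 with loess offsets and -0.46 to 0.035 with a library left out. On 2-kb counts with a library left out, the ranges were -0.070 to 0.19 for the Insm1 window and -0.0013 to 0.24 for its sum, -0.62 to 0.0081 for the Isl1 window 3.1 kb inside, -0.31 to 0.12 for the Pax6 window 1.5 kb inside, -0.16 to 1.31 for that 13.7 kb inside, and -0.03 to 0.27 for the Rfx6 sum. Fewer windows enter the sums at 5 and 1 kb and fewer counts after thinning; otherwise the cause was not tested. Gip had too few counts to be tested after thinning, and 15 of the 17 windows were not tested at 200 bp.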

Other observations

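Within the lists, some genes held single windows that passed the test at 200 bp while their 200-bp sums did not. On 2-kb counts the sums of Foxa2 (-0.55, edgeR adjusted p = 5.5e-05) and Pcsk1 (-0.50, adjusted p = 0.0449) did pass. Of 175 windows of the 5 lists 77 were tested and 23 called (5 higher and 18 lower), against 20.1% of all windows tested. The windows named were chosen after their values were seen. At Foxa2, a forkhead factor of gut endoderm, 3 windows passed in different directions. The window chr2:148080442-148080641, 33.6 kb outside the gene, rose from 2.81 to 28.7 CPM in the group means, with a log2 change of 3.30 ± 0.68 (edgeR adjusted p = 3.6e-05), while that at chr2:148046309-148046508, 561 bp inside a gene end, was lower by a log2 fold change of -0.90 ± 0.27 (adjusted p = 0.00733) and that at chr2:148004959-148005158, 37.8 kb outside, by -1.10 ± 0.36 (adjusted p = 0.0149). At Pcsk1, which encodes a prohormone convertase, the window chr13:75163415-75163614, 28.7 kb outside the gene, fell from 39.2 to 7.54 CPM, a log2 fold change of -2.21 ± 0.50 (adjusted p = 0.000166). At Ddc, an enzyme of serotonin synthesis, a window 6.4 kb inside the gene was higher by 1.10 ± 0.30 (adjusted p = 0.0026). Of 5 windows 50 to 200 kb from Pax6, 1 was higher at 2 kb, against 8.37% of all windows tested. This window, 74.5 kb outside the gene, was higher by 1.58 ± 0.49 (adjusted p = 0.0164). It held 0, 1 and 1 counts at 200 bp in the controls against 7, 1 and 2 with RANKL. The other 4 were not called, at 2-kb log2 fold changes of -0.34, -0.21, 0.66 and 0.37.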
